A study of Mus musculus with 60 samples.

Results

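A set of 10 genes of the fibroblasts that line the brain were followed through cortex, striatum and cerebellum of mice with and without paraoxonase 2 (PON2). They are 10 of the 20423 genes in the deposited counts, chosen by symbol as genes of collagen and of meningeal fibroblasts, and all 10 symbols had a row. They comprise the collagen genes Col1a1, Col1a2 and Col3a1, the small leucine-rich proteoglycan genes Dcn, Lum, Ogn and Fmod, the growth factor gene Igf2, the transporter gene Slc6a13 and the retinoic acid enzyme gene Aldh1a2. The data were 60 RNA libraries, 5 in each of 12 groups of region (cortex, striatum or cerebellum), sex and genotype. The PON2-deficient mice were homozygous for the deficiency, and the wild-type mice were their littermates from crosses of heterozygotes. Both genotypes were on a C57BL/6J background, went through behavioural tests and were killed at 3 to 4 months of age. Each library came from 30 to 50 mg of dissected, frozen and pulverised tissue, and was read as pairs of 150 nt.

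The meninges wrap the brain in layers of fibroblasts, and a thin sheet of them, the pia, follows the surface and the larger vessels inward. These fibroblasts make fibrillar collagens and the proteoglycans that bind collagen fibrils. They also release growth factor and retinoic acid, and carry transporters at the border between blood, cerebrospinal fluid and brain. Few other cells of the adult brain make much collagen I. In bulk tissue, fewer cells of a type and less RNA per cell cannot be told apart.

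Pon2 was checked first. It lay between 50.2 and 58.9 counts per 1 M library counts (CPM) in the 10 wild-type cortex libraries and between 2.34 and 5.63 in the 10 PON2-deficient ones. In striatum the ranges were 44.7 to 56.9 and 2.56 to 6.90 CPM, and in cerebellum 39.2 to 51.3 and 0.454 to 1.25 CPM, so the genotypes did not overlap in any region. Library totals lay between 26.1 and 28.1 M counts. The summed level of the 7 cerebellar neuron markers was 4785 to 5365 CPM in cerebellum and at most 331.8 CPM elsewhere, and that of the 8 striatal neuron markers was 3721 to 7390 CPM in striatum and at most 1283 CPM elsewhere. A few libraries stood apart in ways that touch these genes. The library of wild-type male 2 in cortex was far above the other cortex libraries in collagen. The cerebellum libraries of PON2-deficient female 5 and male 4 had mean log2 CPM of -0.14 and -0.12 over 20 choroid plexus markers, against 2.73 or more in the other 18. The striatum library of PON2-deficient male 5 had a mean precision weight of 0.053 times the median of its region. Values without them are given where they moved a member's result. Mean weights were also low in wild-type male 4 of cerebellum (0.324 times its region's median) and wild-type male 5 of striatum (0.381 times).

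All 10 members were lowest in striatum. The sequence upstream of 4 of them is shown, 2 collagen genes, 1 proteoglycan gene and the retinoic acid enzyme gene. Its relation to the levels by region was not tested. The windows are from RefSeq on GRCm38.p6, 250 bases before to 50 bases after an annotated start site on the plus strand, 5′ to 3′. Capitals mark 3 motifs searched on both strands: the TATA box as TATAAA, the CCAAT box by its own letters, and the GC box as GGGCGG. Matches overlap only in Ogn, where TATAAA lies on both strands.
Col1a2, chr6:4505368-4505667: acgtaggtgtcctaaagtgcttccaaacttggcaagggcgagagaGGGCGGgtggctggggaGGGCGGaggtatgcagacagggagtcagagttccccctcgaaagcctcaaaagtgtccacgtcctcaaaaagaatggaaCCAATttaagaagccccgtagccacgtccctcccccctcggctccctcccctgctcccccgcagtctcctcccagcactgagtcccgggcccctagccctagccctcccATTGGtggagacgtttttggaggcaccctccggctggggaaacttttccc
Col3a1, chr1:45311288-45311587: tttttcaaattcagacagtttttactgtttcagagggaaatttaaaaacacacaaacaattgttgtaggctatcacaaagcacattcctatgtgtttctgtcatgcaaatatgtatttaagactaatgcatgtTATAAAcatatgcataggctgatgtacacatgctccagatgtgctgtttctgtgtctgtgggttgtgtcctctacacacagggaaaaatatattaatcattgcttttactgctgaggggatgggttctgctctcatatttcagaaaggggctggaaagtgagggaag
Ogn, chr13:49607765-49608064: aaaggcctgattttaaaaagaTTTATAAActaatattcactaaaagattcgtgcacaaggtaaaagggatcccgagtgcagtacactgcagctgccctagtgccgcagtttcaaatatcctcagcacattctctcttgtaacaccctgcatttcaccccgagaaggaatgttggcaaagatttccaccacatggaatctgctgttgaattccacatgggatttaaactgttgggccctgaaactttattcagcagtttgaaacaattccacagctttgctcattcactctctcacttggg
Aldh1a2, chr9:71215539-71215838: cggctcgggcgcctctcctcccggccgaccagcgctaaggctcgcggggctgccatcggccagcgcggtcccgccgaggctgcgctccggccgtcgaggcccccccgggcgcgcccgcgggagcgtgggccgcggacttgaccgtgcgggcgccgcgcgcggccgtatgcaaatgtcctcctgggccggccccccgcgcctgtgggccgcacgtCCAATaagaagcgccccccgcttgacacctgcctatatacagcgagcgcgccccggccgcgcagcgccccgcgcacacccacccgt
The Col1a2 window, with 61.0% G and C, held the GC box at 205 and 188 bases and the CCAAT box at 109 bases before the start site and at the start site itself. The Col3a1 window had 37.7% G and C and a TATAAA at 117 bases before the start site. The Ogn window, with 42.3% G and C, held TATAAA on each strand at 229 and 227 bases. The Aldh1a2 window, with 78.0% G and C, held CCAAT at 36 bases. Windows were listed for 7 of the 10 members, 12 windows in all, because Igf2 and Slc6a13 have several start sites. Among those 12, 2 held the TATA box, 6 the CCAAT box and 4 the GC box, beside 13.6, 37.4 and 35.7% of the 32851 promoter windows of that length. A match is a run of letters and no evidence of binding, and no 1 of the 3 motifs was shared by the 4 windows printed. Col1a1, Dcn and Lum are given by name.

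The level of a gene is given as CPM over a library size scaled by the TMM method. For comparing genes with one another it is divided by transcript length, as CPM per kb. On that scale Igf2 was the most abundant member in every region, with means over 20 libraries of 14.0 in cortex, 8.44 in striatum and 25.2 CPM per kb in cerebellum. Dcn came next, with 7.52, 3.58 and 13.8 CPM per kb. In cortex Fmod followed at 6.42, Slc6a13 at 4.63, Col1a2 at 4.09, Aldh1a2 at 3.49, Ogn at 3.23 and Col1a1 at 2.59 CPM per kb. Each of these neighbours overlapped the next over the 20 libraries. Lum (0.855) and Col3a1 (0.796) were lowest in cortex, and again in striatum and cerebellum. In cerebellum Col1a2, at 6.10 CPM per kb, had a higher mean than Fmod, at 5.50, with overlapping libraries (4.76 to 9.32 and 3.83 to 7.34).

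All 10 members differed between striatum and the other regions. Each fell in striatum against cortex, from 0.597 of the cortex level for Igf2 to 0.209 for Fmod, and each rose in cerebellum against striatum, from 2.75-fold for Slc6a13 to 4.11-fold for Ogn. Cerebellum and cortex were closer, with 6 members higher in cerebellum, 1 lower and 3 not called. These tests came from edgeR's quasi-likelihood fit of the 60 libraries with Benjamini-Hochberg adjustment at 0.05. That fit called 57.0% of all 20387 genes between striatum and cortex, 79.6% between cerebellum and cortex and 79.8% between cerebellum and striatum, so a call between regions is common among all genes. The median log2 difference of the members was -1.34, 0.40 and 1.93 in these comparisons, against 0.0054, 0.0029 and -0.0029 for all genes.

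Col1a1 and Col1a2 encode the chains of collagen I, the main fibre of connective tissue. Col1a1 ranged from 8.03 to 82.2 CPM in cortex (median 12.1), 3.28 to 7.19 in striatum (median 4.23) and 10.3 to 42.9 in cerebellum (median 14.9). No striatum library reached the lowest cortex library, while cortex and cerebellum overlapped almost throughout. The log2 difference from cortex was -1.64 in striatum (SE 0.185, edgeR adjusted p = 4.40e-11). For cerebellum minus cortex it was 0.19 (SE 0.174, adjusted p = 0.307). Whether cerebellum and cortex differed turned with the analysis: without wild-type male 2 of cortex the value was 0.48 (SE 0.121, edgeR adjusted p = 3.86e-04), and with all libraries in limma on the deposited values and weights it was 0.33 (SE 0.147, adjusted p = 0.0336). Col1a2 lay at 12.6 to 80.0 CPM in cortex (median 18.6), 5.94 to 11.04 in striatum (median 8.45) and 25.5 to 49.8 in cerebellum (median 32.2). All striatum libraries were below all others, and 1 cortex library lay within or above the cerebellum range. Col1a2 was 1.32 log2 units lower in striatum than in cortex (difference -1.32, SE 0.124, adjusted p = 1.14e-13) and 0.60 higher in cerebellum than in cortex (SE 0.118, adjusted p = 9.40e-06). Col3a1 encodes collagen III, which forms mixed fibres with collagen I. It had 1.07 to 13.8 CPM in cortex (median 3.56), 0.687 to 3.89 in striatum (median 1.70) and 2.86 to 10.8 in cerebellum (median 7.01), and the 3 ranges overlapped. Its log2 differences were -1.23 for striatum minus cortex (SE 0.217, adjusted p = 2.54e-06) and 0.73 for cerebellum minus cortex (SE 0.203, adjusted p = 0.00106).

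**Figure D1:**
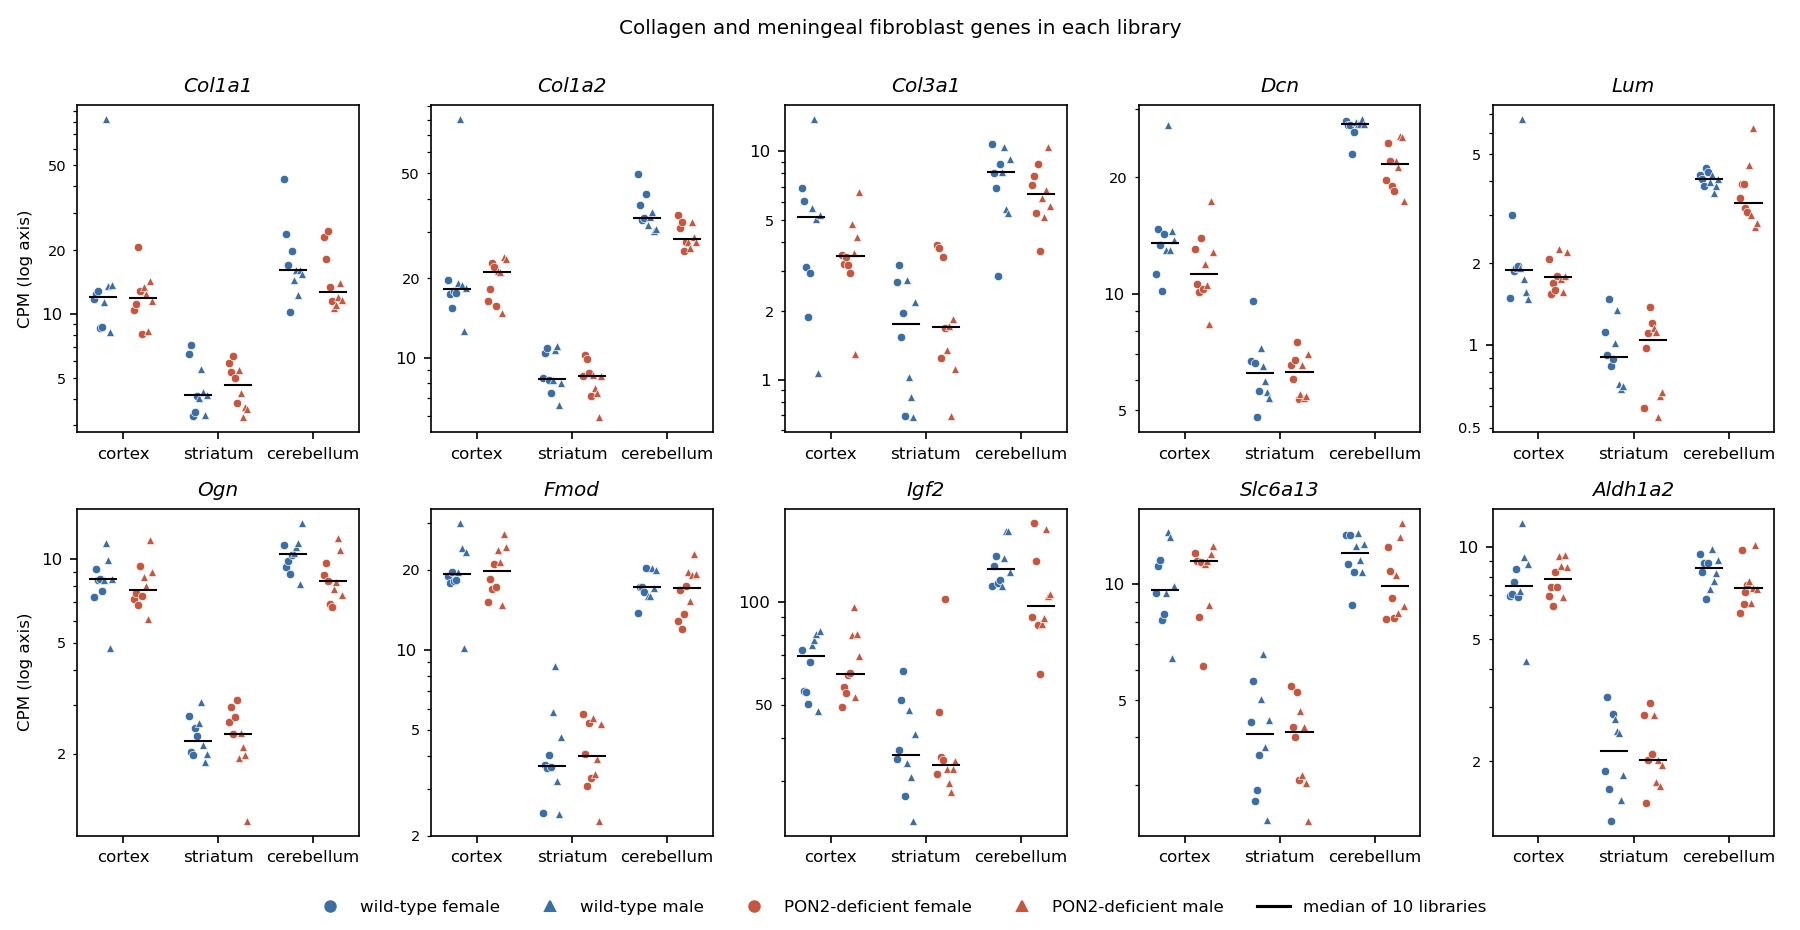
Each panel plots the CPM of 1 gene (log axis) in the 60 libraries by region, with wild-type in blue, PON2-deficient in red, circles for females, triangles for males and bars for the median of 10 libraries. The medians of striatum are lowest in all 10 panels, and wild-type male 2 of cortex stands above the other cortex libraries at 82.2 CPM for Col1a1 and 80.0 CPM for Col1a2.

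The small leucine-rich proteoglycans bind collagen and set the width of its fibrils. Dcn, which encodes decorin, had 8.34 to 27.4 CPM in cortex (median 12.97), 4.80 to 9.58 in striatum (median 6.26) and 17.4 to 28.2 in cerebellum (median 25.5). Cerebellum did not reach down to striatum, while cortex overlapped both. It was 0.88 log2 units higher in cerebellum than in cortex (SE 0.0788, edgeR adjusted p = 5.84e-15), a 1.84-fold difference. Lum, which encodes lumican, was the rarest proteoglycan of the 4, at 1.47 to 6.70 CPM in cortex (median 1.79), 0.547 to 1.47 in striatum (median 0.950) and 2.72 to 6.24 in cerebellum (median 3.89). It was 0.90 log2 units higher in cerebellum than in cortex (SE 0.131, adjusted p = 1.52e-08). Ogn, which encodes osteoglycin, had 4.78 to 11.7 CPM in cortex (median 8.39), 1.14 to 3.11 in striatum (median 2.33) and 6.70 to 13.4 in cerebellum (median 9.52). Striatum did not overlap the other regions, and the cerebellum excess over cortex was small, 0.19 log2 units (SE 0.0812, adjusted p = 0.0279). Fmod, which encodes fibromodulin, was the one member lower in cerebellum than in cortex. Its levels were 10.2 to 29.9 CPM in cortex (median 19.2), 2.27 to 8.73 in striatum (median 3.79) and 11.96 to 22.9 in cerebellum (median 17.2). The difference between cerebellum and cortex, -0.22 (SE 0.104, adjusted p = 0.0450), missed the threshold in 25 of the 60 fits that left out 1 library. That between striatum and cortex, -2.26 (SE 0.114, adjusted p = 2.53e-24), was the largest of any member.

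Igf2 encodes insulin-like growth factor 2, which meninges and choroid plexus release into the cerebrospinal fluid. It lay at 48.0 to 96.7 CPM in cortex (median 64.3), 22.9 to 101.7 in striatum (median 34.4) and 61.7 to 169.4 in cerebellum (median 114.9). The regions overlapped, and the highest striatum library, PON2-deficient female 5, exceeded every cortex library. Igf2 differed least between striatum and cortex (-0.74, SE 0.117, edgeR adjusted p = 2.44e-07) and was 1.80-fold higher in cerebellum than in cortex (log2 0.85, SE 0.116, adjusted p = 3.19e-09). Slc6a13 encodes a transporter that takes up GABA and taurine and is found in leptomeningeal cells. It had 6.12 to 13.7 CPM in cortex (median 11.2), 2.43 to 6.57 in striatum (median 4.13) and 8.12 to 14.4 in cerebellum (median 11.04). Cortex and cerebellum differed by 0.10 log2 units (95% interval -0.09 to 0.30), and the difference was not called. Aldh1a2 encodes an enzyme that makes retinoic acid from retinaldehyde. It had 4.24 to 11.95 CPM in cortex (median 7.57), 1.28 to 3.25 in striatum (median 2.02) and 6.11 to 10.2 in cerebellum (median 7.77). Striatum libraries were all below the others, and the log2 difference between cerebellum and cortex was 0.02 (95% interval -0.16 to 0.21).

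**Figure D2:**
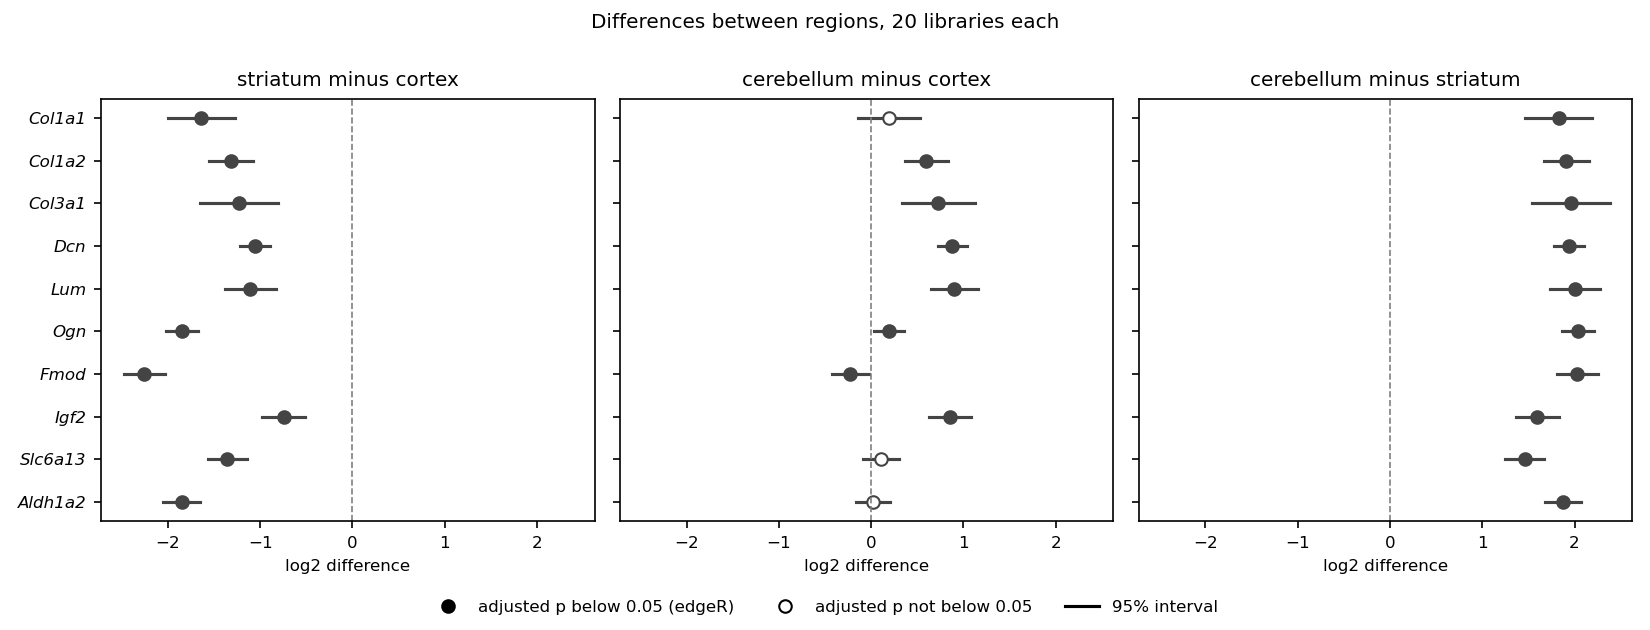
The points are log2 differences between regions for each member, with bars for 95% intervals and filled points where the edgeR adjusted p was below 0.05. All members lie below 0 for striatum minus cortex (-0.74 to -2.26) and above 0 for cerebellum minus striatum (1.46 to 2.04), while those for cerebellum minus cortex lie between -0.22 and 0.90.

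Other genes of the same tissues did not all follow this order. Of 28 further markers of leptomeninges and arachnoid, 21 fell and 5 rose in striatum against cortex (median -1.02), led by the cation transporter gene Slc22a2 (-3.00, SE 0.271, edgeR adjusted p = 2.91e-14). Against striatum, 23 of the 28 were higher in cerebellum. Between cerebellum and cortex 9 were higher and 9 lower, and the largest differences were of Crym (-9.31) and Zic1 (5.27), genes that neurons of these regions also use. Of 12 other fibrillar and fibril-associated collagen genes, 8 fell in striatum against cortex, among them Col5a1 (-1.76, SE 0.116), whose product starts collagen I fibrils. In cerebellum 8 of the 12 were below cortex, led by Col6a1 (-2.88, SE 0.0866) and Col6a2 (-2.02, SE 0.0749), which encode chains of collagen VI. That is the reverse of Col1a2, Col3a1, Dcn and Lum. Of 19 genes for the processing of collagen, 8 rose and 8 fell in striatum, and the cross-linking enzyme gene Lox was among those that fell (-1.07, SE 0.160). Of 7 basement membrane collagens, 5 were higher in cerebellum than in cortex, with Col18a1 the furthest (3.96, SE 0.0983). Omd, a proteoglycan gene of the class of Dcn, was 2.34 log2 units below its cortex level in striatum (difference -2.34, SE 0.177), near Ogn. In the IGF axis, the binding protein genes Igfbp6 (-1.33) and Igfbp2 (-1.33) and the imprinted neighbour of Igf2, H19 (-1.32), fell in striatum against cortex, and H19 was 2.23 higher in cerebellum than in cortex. H19 and Slc22a2 were each at 0 in at least 1 striatum library, and Crym in at least 1 cerebellum library. Among genes of retinoic acid, Aldh1a1 was 2.44 log2 units higher in cerebellum than in cortex (SE 0.0693), while Aldh1a2 did not differ by the test.

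Markers of cells that could travel with the members in a dissection were also summed by region, without a test. The summed level of 20 choroid plexus markers was 76.0 to 646.8 CPM in cortex, 131.1 to 2177 in striatum and 70.1 to 2925 in cerebellum. None of the 20 was at 0 in all libraries of a region. For 9 markers of border macrophages, which sit among meningeal fibroblasts, the sums were 18.9 to 72.3, 17.2 to 48.2 and 13.4 to 25.2 CPM. The 13 endothelial markers overlapped between regions, with 380.2 to 472.7, 386.1 to 474.0 and 346.4 to 442.1 CPM. How much surface or membrane each dissection kept was not measured, and its part in the differences between regions was not tested.

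Within regions, single libraries set much of the spread. In cortex, Col1a1 was at 82.2 CPM in wild-type male 2 and between 8.03 and 20.7 CPM in the other 19 libraries. The same library had 80.0 CPM of Col1a2 (others at most 24.0), 13.8 CPM of Col3a1, 27.4 CPM of Dcn and 6.70 CPM of Lum. Its excess was smaller in Ogn (11.5 CPM, against a cortex median of 8.39), Fmod (29.9 against 19.2) and Aldh1a2 (11.95 against 7.57), and in Slc6a13 (13.7 CPM, against 13.3 in the next library), and it lay among the other libraries in Igf2 (77.6 CPM). The collagen genes, Dcn and Lum thus stood out further in it than the remaining 5 members. Its border macrophage markers summed to 72.3 CPM, the highest of the 60 libraries, with 34.5 CPM in the next cortex library, wild-type female 5. Its 10 ependymal markers summed to 33.1 CPM, the highest in cortex, where the next library had 28.3 CPM. Its endothelial markers (392.0 CPM) and choroid plexus markers (132.9 CPM) lay within the range of the other wild-type males. The part of these cells in its collagen values was not tested. In the opposite direction, wild-type male 4 of cortex had the lowest values of Col1a2 (12.6 CPM), Col3a1 (1.07), Ogn (4.78), Fmod (10.2), Igf2 (48.0) and Aldh1a2 (4.24) in cortex. In striatum, PON2-deficient female 5 had 101.7 CPM of Igf2, and of the other members only Ogn (3.11 CPM) was also highest there in that library. Its choroid plexus markers summed to 2177 CPM, the most of any striatum library. In cerebellum, wild-type female 1 was highest in Col1a1 (42.9 CPM), Col1a2 (49.8 CPM) and Col3a1 (10.8 CPM).

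**Figure D3:**
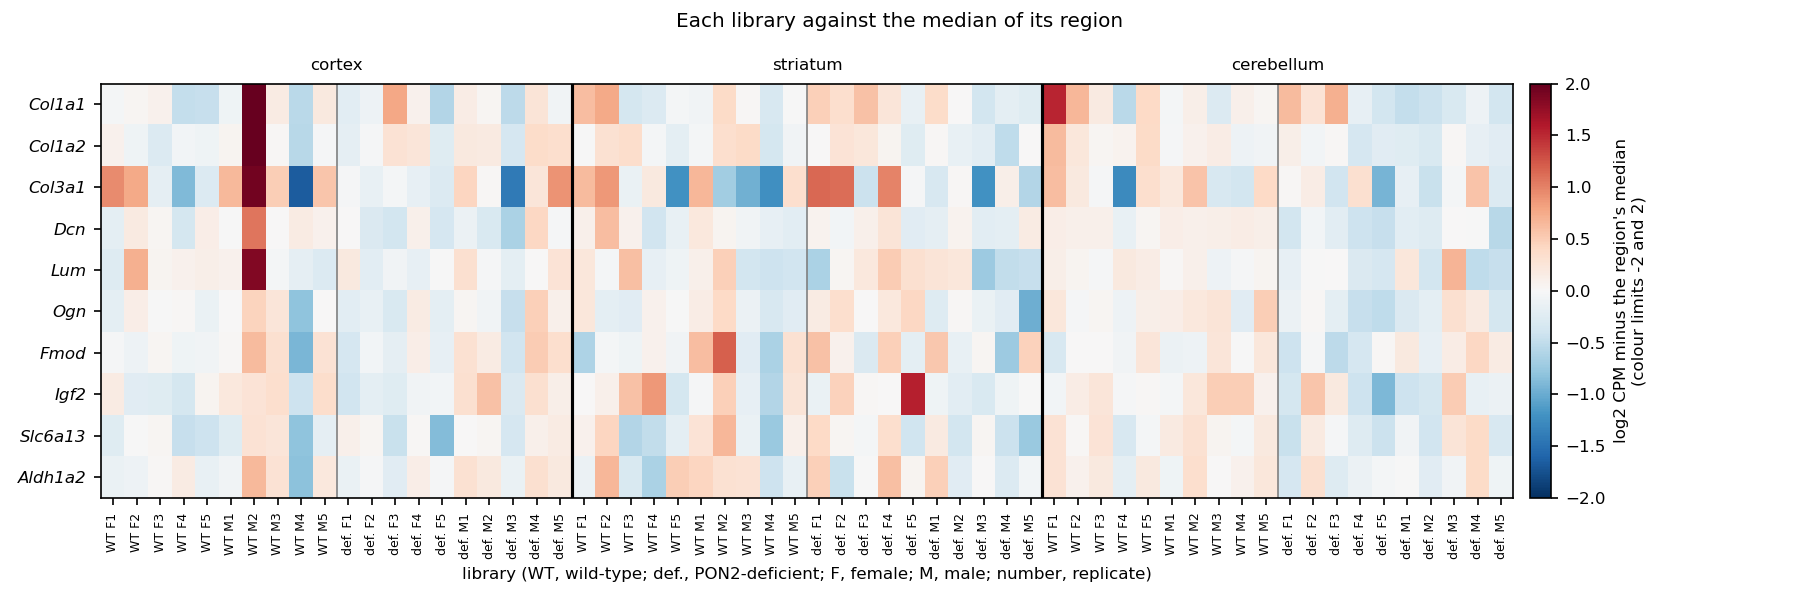
Each column is 1 library and each row 1 gene, and the colour is log2 CPM minus the median of the region, limited to -2 and 2. Wild-type male 2 of cortex is dark red for Col1a1, Col1a2, Col3a1 and Lum (82.2, 80.0, 13.8 and 6.70 CPM), and the column of PON2-deficient female 5 of striatum is dark red for Igf2 (101.7 CPM).

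The design asks how libraries differ with the loss of PON2. By genotype no member passed the edgeR threshold in any region, with 0 of 10 in cortex, striatum and cerebellum. Few genes did at all: 0.0316% of those tested in cortex, 0.0105% in striatum and 0.0321% in cerebellum. At an unadjusted p below 0.05 there were 0, 0 and 3 members, beside 11.4, 4.94 and 11.1% of all genes. The members came closest to the threshold in cerebellum. All 10 had negative estimates there, with a median log2 difference of -0.22. Of all genes, 49.6% had negative estimates and their median was 0.00090. The members tended to rise and fall together between libraries, though not every pair did. Over pairs of members within cerebellum r ran from -0.38 to 0.84, with a median of 0.41. Their 10 signs are therefore not separate observations and were not tested as a set. In cortex 8 of 10 were negative (median -0.12) and in striatum 6 of 10 (median -0.02).

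Dcn in cerebellum had the smallest p of any member. The 10 wild-type libraries lay between 23.0 and 28.2 CPM (median 27.5) and the 10 PON2-deficient ones between 17.4 and 25.5 (median 21.7). Of the wild-type libraries only female 4, at 23.0 CPM, lay within the PON2-deficient range, and 7 of the 10 PON2-deficient libraries were below every wild-type library. The log2 difference was -0.33 (SE 0.0651, 95% interval -0.45 to -0.20, edgeR adjusted p = 0.0641), a level 0.797 times that of wild-type. The call turned with the method. DESeq2 gave an adjusted p of 0.00126, limma with array quality weights 0.0478, and limma on the deposited values and weights 0.0527. DESeq2 called 250 of all genes by genotype in cerebellum, where the main fit called 6. In 3 of 20 fits without 1 library edgeR's adjusted p was below 0.05 (0.0419 to 0.0487), without wild-type male 3, PON2-deficient female 2 or PON2-deficient male 3. Without the 2 libraries lowest in choroid plexus markers the difference was -0.33 (adjusted p = 0.104), and when the mean of those markers was added as a covariate it was -0.31 (adjusted p = 0.123).

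Col1a2 came next. In cerebellum it lay at 30.1 to 49.8 CPM in wild-type (median 33.9) and 25.5 to 34.8 in PON2-deficient libraries (median 28.1). The groups overlapped between 30.1 and 34.8 CPM. The log2 difference was -0.28 (SE 0.0730, 95% interval -0.42 to -0.14, edgeR adjusted p = 0.149), and DESeq2 gave an adjusted p of 0.0297. Ogn lay at 8.16 to 13.4 CPM in wild-type (median 10.4) and 6.70 to 11.9 in PON2-deficient libraries (median 8.31), a difference of -0.27 (SE 0.101, edgeR adjusted p = 0.309). Col1a1 had ranges of 10.3 to 42.9 and 10.7 to 24.5 CPM that overlapped throughout, and its difference of -0.32 (SE 0.185, adjusted p = 0.543) became -0.14 without wild-type female 1. The remaining 6 members in cerebellum had log2 differences between -0.06 (Fmod) and -0.25 (Igf2). Igf2 spread wider in PON2-deficient (61.7 to 169.4 CPM) than in wild-type libraries (111.1 to 160.9 CPM). The lowest of these, PON2-deficient female 5, was one of the pair lowest in choroid plexus markers, and the other, male 4, had 104.1 CPM.

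In cortex the estimates of the collagens, Dcn and Lum moved with 1 library. Over all libraries the difference was -0.45 for Col1a1 (SE 0.328, edgeR adjusted p = 0.647), -0.48 for Col3a1 (SE 0.322, adjusted p = 0.610), -0.36 for Lum (SE 0.235, adjusted p = 0.590) and -0.28 for Dcn (SE 0.142, adjusted p = 0.466). Without wild-type male 2 these were 0.12, -0.21, -0.02 and -0.14, the number of negative members went from 8 to 3, and their median to 0.04. Col1a2 turned from -0.20 to 0.20 (SE 0.0995, adjusted p = 0.517). Medians of the genotypes were near each other for Col1a1, 12.1 CPM in wild-type and 11.95 in PON2-deficient libraries. The other 5 members in cortex had differences between -0.05 (Ogn) and 0.06 (Slc6a13) over all libraries.

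In striatum the differences lay between -0.12 (Col1a2, SE 0.107, edgeR adjusted p = 0.995) and 0.16 (Col3a1, SE 0.302, adjusted p = 0.995). Dcn, the member with the smallest p in cerebellum, differed by -0.05 here (95% interval -0.26 to 0.17), with 4.80 to 9.58 CPM in wild-type and 5.33 to 7.48 in PON2-deficient libraries. Igf2 differed by 0.03 over all libraries and by -0.19 without PON2-deficient female 5. Without PON2-deficient male 5, the library of lowest weight, Ogn went from -0.02 to 0.05 and Fmod from 0.0056 to -0.05. Again no member was called. The difference between cerebellum and striatum in the genotype effect on Dcn was -0.28 (SE 0.162, edgeR adjusted p = 0.862), so the regions were not shown to differ.

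**Figure D4:**
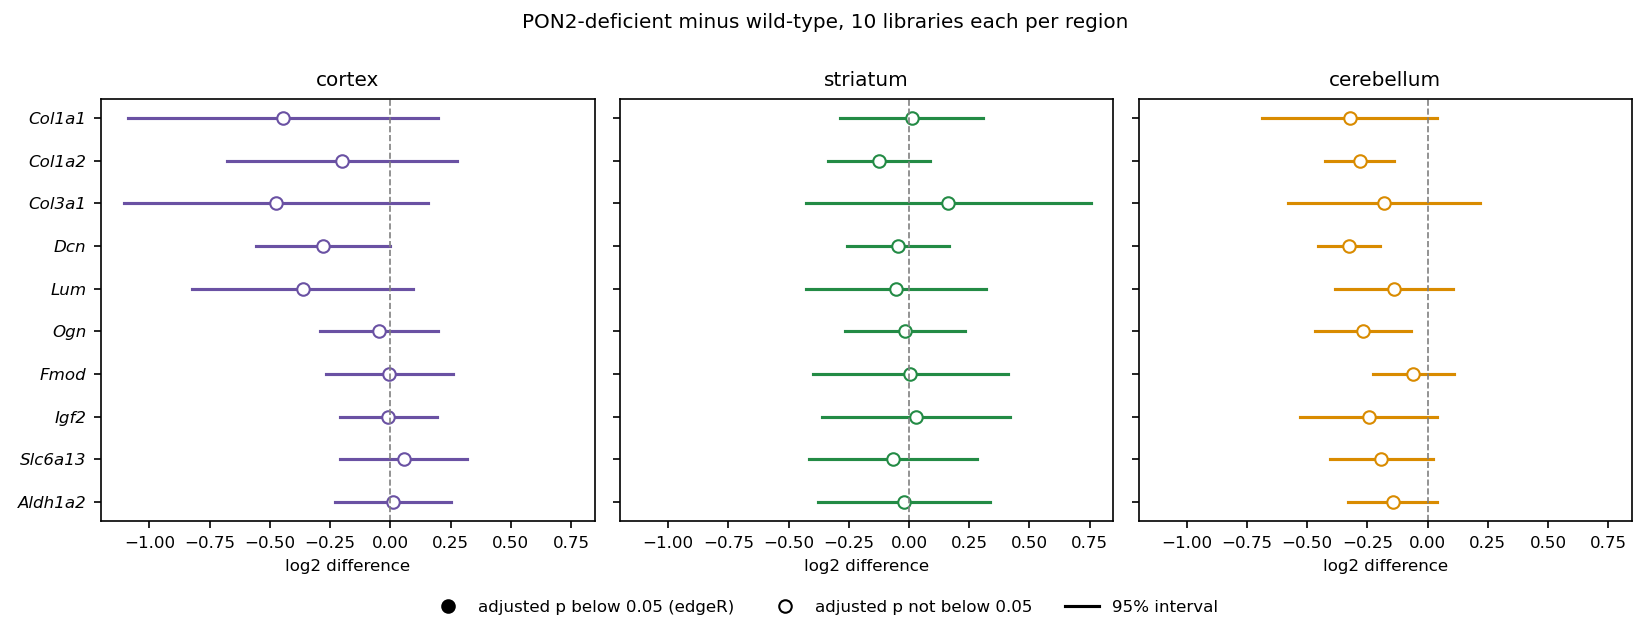
The points are log2 differences of PON2-deficient minus wild-type libraries (10 each per region), with bars for 95% intervals, and open points where the edgeR adjusted p was not below 0.05. All points are open. In cerebellum all 10 lie left of 0 and the intervals of Dcn (-0.45 to -0.20), Col1a2 (-0.42 to -0.14) and Ogn (-0.47 to -0.07) leave out 0. That of Dcn in cortex (-0.56 to -0.00067) also leaves out 0, though its unadjusted edgeR p was 0.0630.

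The sexes taken alone gave the same count of 0 members. Beside these the fits called 0.00527% of genes by genotype in females and 0.148% in males of cortex, 0.00527% in each sex of striatum, and 0.00534% and 0.0160% in females and males of cerebellum. The smallest adjusted p of a member was 0.214, for Dcn in males of cerebellum (-0.31, SE 0.0919). Col1a1 in males of cortex had a difference of -1.11 (SE 0.461, adjusted p = 0.277), which became 0.03 without wild-type male 2. No member was called for a difference of the genotype effect between the sexes, where 0.00% of genes were called in each of the 3 regions. None was called between males and females either, beside 0.0896, 0.105 and 0.118% of genes in cortex, striatum and cerebellum. Igf2 was the nearest, 0.36 log2 units higher in males of cortex (SE 0.103, adjusted p = 0.259). No member was called for a difference of the genotype effect between regions, beside 0.00% of genes for striatum against cortex, 0.0147% for cerebellum against cortex and 0.00981% for cerebellum against striatum.

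Among the genes around the members, no list of matrix, border, vessel, blood, ependymal or neuron genes had a called gene by genotype in any region. In cerebellum 9 of 12 other fibrillar and fibril-associated collagens, 6 of 7 basement membrane collagens and 18 of 26 further leptomeningeal markers had negative estimates, with medians of -0.10, -0.09 and -0.07. The smallest p among the matrix and leptomeningeal lists belonged to Col4a6 (-0.39, SE 0.104, edgeR adjusted p = 0.149), a basement membrane chain, and Mgp (-0.23, SE 0.0676, adjusted p = 0.179), the gene of matrix Gla protein. Prelp, another proteoglycan gene, differed by -0.36 (SE 0.157, adjusted p = 0.395). Choroid plexus and ependymal markers also had lower estimates in cerebellum, 20 of 20 and 10 of 10, with medians of -0.34 and -0.25. The summed choroid plexus markers were 645.1 to 2457 CPM in wild-type and 70.1 to 2925 CPM in PON2-deficient cerebellum. In cortex 19 of 20 choroid plexus markers (median -0.84) and 10 of 10 ependymal markers (median -0.52) had negative estimates, and in striatum 13 of 20 and 0 of 10. The part of these cells in the members' values was not tested. A fit with the choroid plexus mean as a covariate gave negative estimates for the 10 members in cerebellum, but signs alone do not measure that part. Ependymal and leptomeningeal markers were not put into a fit.

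Col1a1 and Col1a2 are joined in collagen I in a fixed proportion, so their ratio was followed. The ratio of Col1a1 to Col1a2 CPM, with transcripts of 5.93 and 5.35 kb and no correction for length, had a median of 0.605 in cortex (0.482 to 1.03), 0.530 in striatum (0.306 to 0.778) and 0.479 in cerebellum (0.304 to 0.861). Libraries of the 3 regions overlapped. By genotype the mean log2 ratio in cortex was -0.73 ± 0.242 (SD, n = 10) in PON2-deficient and -0.58 ± 0.334 (SD, n = 10) in wild-type libraries. The difference of -0.15 was within the spread (permutation test of 100000 resamples, two-sided, p = 0.269, adjusted over 3 regions 0.451). In striatum the difference was 0.15 (permutation test, adjusted p = 0.451) and in cerebellum 0.0026 (permutation test, adjusted p = 0.991).

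**Figure D5:**
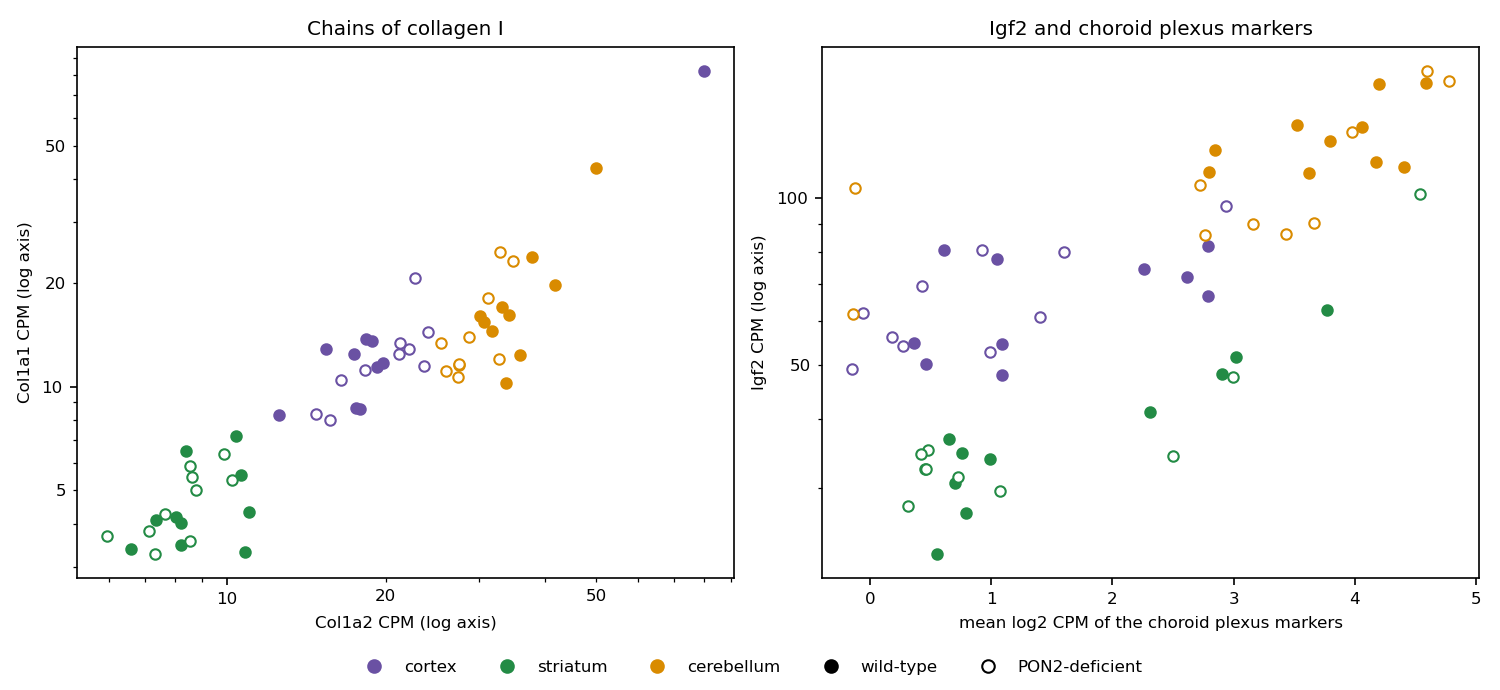
Left, Col1a1 against Col1a2 CPM (log axes) in 60 libraries. Right, Igf2 CPM (log axis) against the mean log2 CPM of 20 choroid plexus markers. Colours are regions, filled points wild-type and open points PON2-deficient. The wild-type male 2 cortex library is at the top right of the left panel (82.2 and 80.0 CPM), and the open cerebellum points at -0.14 and -0.12 in the right panel are PON2-deficient female 5 and male 4.

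How the members moved with one another was described over the 60 libraries after subtracting each group's mean from log2 CPM. These correlations share libraries, depth and dissection and are given as descriptions. Col1a1 and Col1a2 were each other's closest gene among 16753 compared (Pearson's r 0.81, Spearman's rho 0.66, n = 60), with r of 0.94 in cortex, 0.45 in striatum and 0.74 in cerebellum, and 0.66 without the pair of libraries furthest in Col1a1. Over the 45 pairs of members the median r was 0.43, from 0.02 to 0.81. It was 0.65 within cortex (0.07 to 0.94), 0.24 within striatum (-0.31 to 0.74) and 0.41 within cerebellum (-0.38 to 0.84). Igf2 was closest to Slc13a4 (r 0.84), a sulphate transporter gene listed here with the further leptomeningeal markers. Igf2 also went with the choroid plexus mean (r 0.76, rho 0.72, 0.69 without 2 libraries, and 0.58, 0.90 and 0.68 within cortex, striatum and cerebellum). The mean of all members had an r of 0.06 with the choroid plexus mean. With the further leptomeningeal markers its r was 0.74 (rho 0.64, 0.65 without 2 libraries, and 0.78, 0.82 and 0.60 within the regions). With the border macrophage markers it was 0.68 (rho 0.54, 0.51 without 2 libraries, and 0.83, 0.55 and 0.44 within the regions). Slc6a13 and Aldh1a2 were both closest to Slc47a1 (r 0.74 and 0.69), an organic cation exporter gene of arachnoid cells, Ogn to Slc6a20a (0.77), Fmod to Ptgds (0.78), which encodes prostaglandin D synthase, and Dcn to Gjb2 (0.63), a gap junction gene of leptomeninges. Col3a1 was closest to Rcn3 (0.59) and Lum to Galm (0.67). The 10 genes outside the members most like their mean were Cd74 (r 0.76), Cyp1b1 (0.70), Slc47a1 (0.69), H2-Aa (0.68), Cbr2 (0.67), Serping1 (0.66), Islr (0.64), Dse (0.63), Ifitm2 (0.62) and Umodl1 (0.62). Cd74 and H2-Aa act in antigen presentation. Without the 2 libraries furthest in the members' mean, r was 0.68 for Cd74 but 0.29 for Cbr2 and 0.30 for Umodl1, and 3 of the 10 (Cd74, Slc47a1 and Islr) were also among the 10 highest by Spearman's rho.

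The members lie on several chromosomes. Col1a2, on chromosome 6 from 4504814 to 4541544 (GRCm38, plus strand), lies 722.6 kb from Pon2. Of 10 other protein-coding genes tested within 1 Mb of Pon2, 0 were called in cortex, 0 in striatum and 1 in cerebellum, which was Asb4 (-1.55, SE 0.269, edgeR adjusted p = 0.0421), named after its value was seen. Estimates were negative for 8 of the 10 in each region, beside 50.2, 46.1 and 49.6% of all genes in cortex, striatum and cerebellum. The median log2 difference of the 10 neighbours was -0.07, -0.05 and -0.20 in these regions. Slc6a13 is also on chromosome 6, from 121300227 to 121337733, far from Pon2. Dcn (97479609 to 97518143) and Lum (97565128 to 97572703) are neighbours on chromosome 10. Col1a1 is on chromosome 11 from 94936224 to 94953042, Col3a1 on chromosome 1 from 45311538 to 45349706 and Fmod on chromosome 1 from 134037254 to 134048277. Ogn is on chromosome 13 from 49608046 to 49624501, Aldh1a2 on chromosome 9 from 71215789 to 71296243 and Igf2, the one member on the minus strand, on chromosome 7 from 142650766 to 142666816. Igf2 overlaps the antisense gene Igf2os, and Ogn overlaps Cenpp on the other strand, both of which have rows of their own. Whether the counting used strand is not given in the sources used here, and without it reads of such partners cannot be told apart.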

How the data were processed

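RNA of 60 mouse brain libraries was analysed, 5 in each of 12 groups. The authors deposited expected counts per gene, log2 CPM values and a precision weight score for each value. The submitters' processing notes name Salmon, edgeR and limma. Genome build, annotation and strand setting: not given in the sources used here. Checked against the counts, the deposited log2 values are log2 CPM with 0.5 added to each count and TMM-scaled library sizes, to within 5.33e-14. Of 20423 gene identifiers, 20403 matched GENCODE M21 (GRCm38).

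Expected counts were rounded for tests. The main test was edgeR's quasi-likelihood F test (edgeR 4.0.16 in R 4.3.3) with TMM scaling, a filter on low counts and Benjamini-Hochberg adjustment over all genes tested at 0.05. Each region was fitted alone for genotype and sex (20 libraries), and all 60 libraries together for regions. SEs are the log2 difference divided by the root of F, and 95% intervals come from the SE and the normal distribution. CPM values use unrounded counts, and log2 CPM a prior count of 2. All 10 members passed the filter in every fit. The labels do not say whether libraries with equal numbers came from 1 mouse or what separates replicates, so p-values measure the spread between libraries. Alternatives used DESeq2 1.42.0, limma 3.58.1, other scalings, no filter, a replicate block, added covariates and left-out libraries. Fits were tested on simulated data.

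The genes named are the members, Pon2, from each list up to 4 called genes with the largest difference or, with none called, up to 2 with the smallest p, and the 10 genes most like the members' mean. The members and lists were chosen with earlier results of these data known.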

Additional observations from a re-analysis of the deposited data

Results flagged for a closer look

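Groups of 5 libraries were searched for a highest or lowest library that lay far from the rest, its gap to the nearest being more than 0.71 of the group's range. Of 144 groups, 11 held such a library, and chance alone gives about 1 in 20, or 7.2. Wild-type male 2 of cortex gave 4 of them, with 82.2 CPM of Col1a1 (the other 4 libraries 8.26 to 13.8), 80.0 of Col1a2 (12.6 to 19.3), 27.4 of Dcn (12.97 to 14.5) and 6.70 of Lum (1.47 to 1.92). Wild-type male 4 of cortex was low in Igf2, at 48.0 CPM against 74.7 to 82.1. PON2-deficient male 3 of cortex was low in Col1a2, at 14.8 CPM against 21.2 to 24.0, and in Aldh1a2, at 6.86 CPM against 8.63 to 9.45. PON2-deficient female 3 of cortex was high in Pon2, at 5.63 CPM against 3.14 to 3.60. In striatum, wild-type female 1 was low in Fmod (2.44 CPM against 3.58 to 4.02), PON2-deficient male 5 in Ogn (1.14 CPM against 1.93 to 2.38), and wild-type male 3 in the ratio of Col1a1 to Col1a2 (0.391 against 0.491 to 0.521).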

How the results depend on the processing

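No member log2 difference that was called changed direction in any alternative. By genotype 0 members were called by edgeR in cerebellum, 2 by DESeq2 (Dcn and Col1a2) and 1 by limma with array quality weights (Dcn), and 0 to 1 when 1 library was left out. The cause was not tested. With a replicate block Dcn in cerebellum differed by -0.34 (adjusted p = 0.0961). Equal numbers were not shown to pair the libraries, since correlations of same-numbered wild-type and PON2-deficient libraries ran from -0.17 to 0.51. Across regions 9, 14 and 13 of 20 libraries correlated best with their own number out of 5, more than the 1 in 5 of a random choice, which is a hint from the data and not from the labels. The ratio of Col1a1 to Col1a2 in cerebellum differed by genotype by -0.0735 to 0.0932 when 1 library was left out. Apart from fits without 1 library, counts of all genes called by genotype ran from 2 to 242 in cortex and 1 to 7 in striatum. In cerebellum they ran from 4 to 250, and to 23 at most outside DESeq2. The main fits called 6, 2 and 6, and the highest counts came from DESeq2 each time. Fits without 1 library called 1 to 26 genes in cortex, 2 to 3 in striatum and 1 to 49 in cerebellum. Between cerebellum and cortex, Ogn lost its call in 4 fits without 1 library (adjusted p 0.0518 to 0.0573). Fmod lost it in 25 (up to 0.0935). With the replicate number as a block across regions, Fmod lost its call (-0.20, adjusted p = 0.0552) and Col1a1 gained one (0.30, adjusted p = 0.0375), and Col1a1 also gained one with the deposited values in limma (0.33) and without wild-type male 2 of cortex.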
